A study of Mus musculus with 6 samples.

Results

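The fibroblast and mesenchymal programme is followed here in mouse cells that began as embryonic fibroblasts and were reprogrammed into kidney tubule cells. It was taken as 41 genes chosen by symbol from a list of 16 matrix genes, 4 genes of matrix turnover, 9 transcription factors, 6 surface proteins and 6 contractile or cytoskeletal genes. Each of the 41 matched an Ensembl identifier among the 49671 genes of the count tables. The cells are iRECs (induced renal tubular epithelial cells) of the strain B6.129S4-Pkd1tm2Ggg/J, so every library comes from cells that began with the floxed Pkd1 allele. RNA came from cells grown to confluency in fibroblast medium with serum. In the Cre group (Pkd1 -/-, knockout), clones 4, 7 and 21 had been transduced with Cre recombinase. In the Flp group (Pkd1 fl/fl, labelled wild type), the same 3 clones had been transduced with Flp recombinase. Each culture descends from a single clone, and no library of the starting fibroblasts was used here, so silencing is read as a low level and not as a loss measured against the parent cell.

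Fibroblasts build connective tissue by secreting fibrillar collagens, fibronectin and elastic fibre proteins, and they adjust that matrix with metalloproteinases and their inhibitors. Transcription factors of the Twist, Snail and Zeb families hold cells in a mesenchymal state and repress epithelial adhesion genes such as Cdh1, while Prrx1, Tcf21 and Tbx18 mark mesenchymal lineages. In the kidney the same genes mark interstitial fibroblasts, pericytes and the myofibroblasts of scarred and cystic tissue, and healthy tubule cells express few of them.

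Total gene counts lay between 25196120 (Flp clone 4) and 46918341 (Cre clone 21), so that a gene without a read could still lie at up to 0.0632 CPM in Cre clone 21 or 0.121 CPM in Flp clone 4 (limit of 3 counts, counting error only). Pkd1 was at 145, 105 and 117 CPM in Cre clones 4, 7 and 21, against 198, 229 and 166 CPM in Flp clones 4, 7 and 21. Every Cre library was below its own Flp library, although the counts do not isolate the deleted exons. The 12 epithelial markers examined passed the filter on low counts in full, and Cdh1 (E-cadherin) was at 642, 835 and 592 CPM in the Cre clones against 661, 496 and 810 CPM in the Flp clones. Markers of other cell types were mostly near the limit: Cdh5, Kdr, Adgre1, Myod1, Myog, Acan and Ibsp had 0 reads in all 6 libraries. Over 6 lists of 5 such markers, 7 genes had a mean of at least 1 CPM. Nes lay at 356 to 806 CPM, Csf1r at 111 to 295, Lpl at 59.5 to 298, Pparg at 16.3 to 42.7, Tnnt2 at 4.21 to 22.7, Cd68 at 4.42 to 6.62 and Vwf at 2.04 to 4.40 CPM over the 6 libraries, and their part in the results was not tested. Whether the 3 clones stem from different animals is not stated in the labels, and all p-values therefore describe no more than the spread between these clone pairs. In bulk RNA, fewer cells of a type and less RNA per cell cannot be told apart.

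About as many members were expressed as among protein-coding genes at large, and every role held members on both sides of 1 CPM. Of the 41 members, 21 had a mean of at least 1 CPM (reads of a gene scaled to a common library size by TMM), and those same 21 reached 1 CPM in all 6 libraries. Another 19 stayed under 1 CPM in all libraries, 7 of these never exceeded 3 reads, and Thy1 and Tcf21 had none. Col6a1 lay between, above 1 CPM in both libraries of clone 4 only. So 51.2% of the members had a mean of at least 1 CPM, against 54.1% of 21811 protein-coding genes, and 46.3% of the members were under 1 CPM in all libraries, against 43.6% of the protein-coding genes. The number of members at or under 3 reads was 11, 14 and 10 in Cre clones 4, 7 and 21 and 12, 12 and 13 in Flp clones 4, 7 and 21, and library depth differed between these libraries. By role, 8 of 16 matrix genes, 3 of 4 turnover genes, 4 of 9 transcription factors, 3 of 6 surface genes and 3 of 6 contractile or cytoskeletal genes had a mean of at least 1 CPM.

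**Figure D1:**
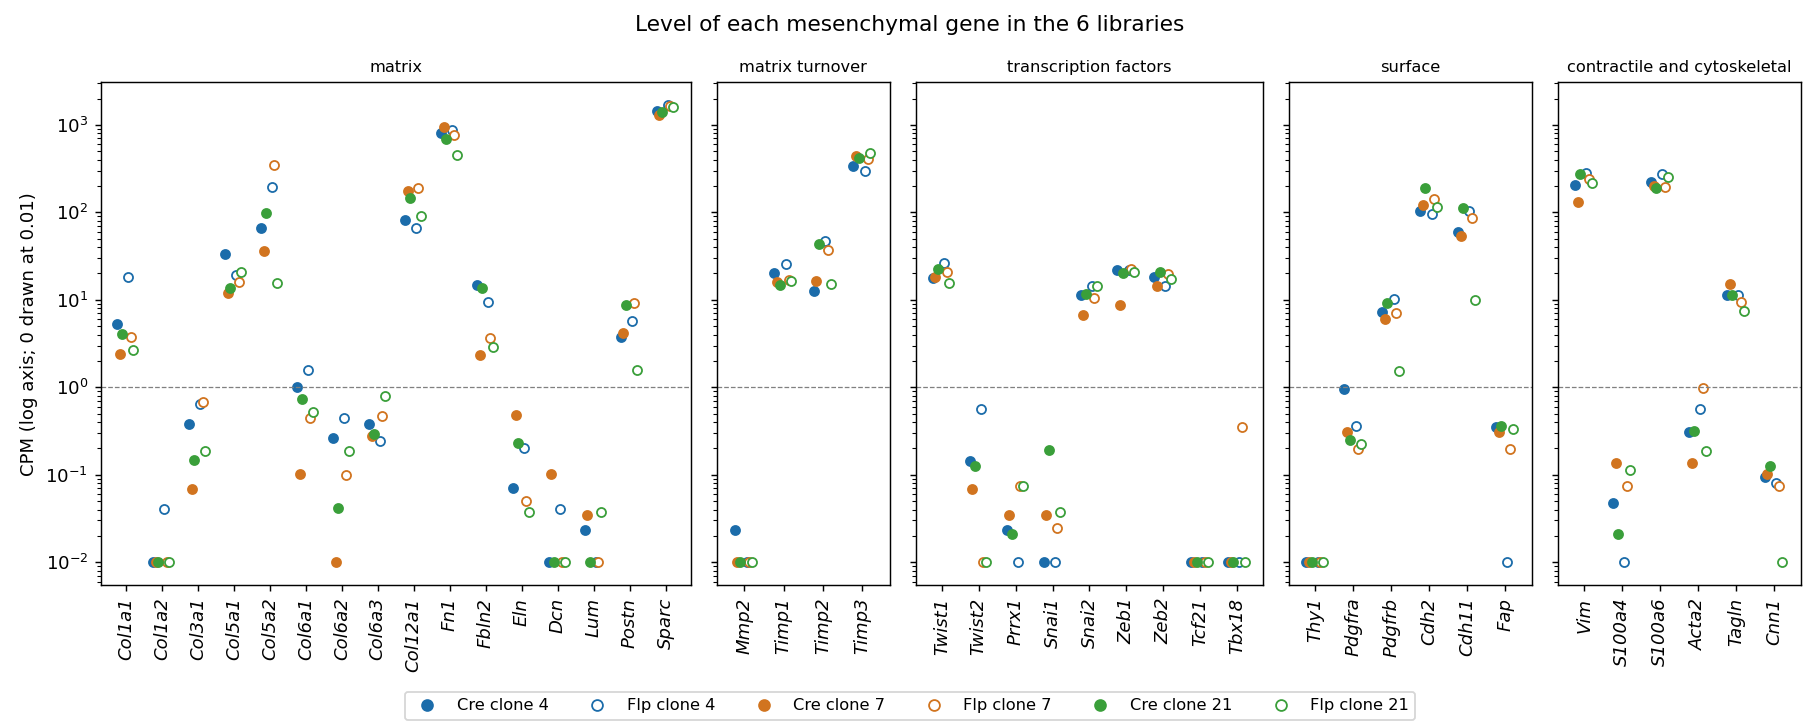
CPM of each of the 41 genes (log axis, 0 drawn at 0.01) in the 6 libraries, by role, with Cre as filled and Flp as open points and the clone as colour; the dashed line marks 1 CPM. In every role some genes, such as Sparc at 1305 to 1679 CPM, lie far above the line, and others, such as Col1a2, lie at or near 0 in every library.

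Promoter sequence is shown for pairs of members of like function that stood on opposite sides of 1 CPM, with CG dinucleotides, the feature counted here, in capitals. Twist1 and Twist2 are paralogous basic helix-loop-helix factors. Col5a1 and Col3a1 encode chains of fibrillar collagens. Each run is the 250 bases before the RefSeq start (GRCm38.p6), 5′ to 3′ on the gene's own strand, which is the plus strand for all 4.
Twist1, 18 CG dinucleotides, chr12:33957421-33957670: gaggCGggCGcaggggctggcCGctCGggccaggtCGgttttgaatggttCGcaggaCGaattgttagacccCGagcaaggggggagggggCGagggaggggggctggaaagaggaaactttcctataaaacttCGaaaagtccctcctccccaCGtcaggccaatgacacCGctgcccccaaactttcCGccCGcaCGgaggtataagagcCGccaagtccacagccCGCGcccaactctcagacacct
Twist2, 23 CG dinucleotides, chr1:91801211-91801460: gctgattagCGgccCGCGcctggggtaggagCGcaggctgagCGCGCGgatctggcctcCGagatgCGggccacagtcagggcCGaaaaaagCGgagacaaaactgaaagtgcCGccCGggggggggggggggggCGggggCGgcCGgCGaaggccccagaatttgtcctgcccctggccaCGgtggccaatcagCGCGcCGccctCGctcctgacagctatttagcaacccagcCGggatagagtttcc
Col5a1, 28 CG dinucleotides, chr2:27886175-27886424: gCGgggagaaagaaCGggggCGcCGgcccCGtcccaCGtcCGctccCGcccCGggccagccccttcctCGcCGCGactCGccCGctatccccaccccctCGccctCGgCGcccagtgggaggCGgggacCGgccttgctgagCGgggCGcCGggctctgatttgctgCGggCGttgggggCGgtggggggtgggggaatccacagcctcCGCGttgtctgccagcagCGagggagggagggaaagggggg
Col3a1, 0 CG dinucleotides, chr1:45311288-45311537: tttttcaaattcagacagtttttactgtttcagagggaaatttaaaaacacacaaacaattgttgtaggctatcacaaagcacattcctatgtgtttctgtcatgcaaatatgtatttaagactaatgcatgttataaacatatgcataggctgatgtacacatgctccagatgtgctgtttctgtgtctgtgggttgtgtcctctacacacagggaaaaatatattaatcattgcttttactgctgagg

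The low Twist2 had a promoter at least as rich in CG as that of the expressed Twist1, whereas the low Col3a1 had none beside the CG-rich Col5a1. Over the 25 members with an entry in the RefSeq table, the 11 with a mean of at least 1 CPM had a median of 8 CG dinucleotides (range 3 to 28), and the 14 below had a median of 4 (range 0 to 27). The ranges overlapped almost completely, and the median over 32851 promoters was 6. Searched on both strands, CAGGTG, the E-box bound by Snail and Zeb proteins, was found in 2 of the 11 and 1 of the 14 promoters, against 17.2% of all promoters. TATAAA was found in 2 and 2, against 12.4% of all promoters. CCAAT was found in 5 and 5, against 33.8%. For genes with several starts, the start with the lowest coordinate was used.

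Levels of different genes were compared per kilobase of exons. Sparc (chromosome 11, 55394500 to 55423183, minus strand, GRCm38), a secreted matricellular glycoprotein that binds collagen, had the highest mean level of the members, 399 CPM per kilobase, which is the 99.9th percentile of the 15355 genes tested. S100a6, a calcium-binding protein, followed at 163 CPM per kilobase (99.2nd percentile). Fn1 (fibronectin, 64.6), Timp3 (48.6) and Vim (vimentin, 47.4 CPM per kilobase) were also above the 93rd percentile. Type I and type III collagen, the bulk of fibroblast matrix, were at the other end. Col1a1 averaged 0.918 and Col3a1 0.0356 CPM per kilobase, the 22.1st and 0.2nd percentiles of the genes tested. Among the listed collagen chains the highest levels were those of type V and of the fibril-associated type XII: Col5a2 averaged 13.1, Col12a1 8.18 and Col5a1 2.27 CPM per kilobase.

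No member passed the threshold between Cre and Flp. In edgeR's quasi-likelihood test with clone as a block and Benjamini-Hochberg adjustment over 15355 genes (adjusted p under 0.05), 0 of 27 members tested were called, beside 0% of all genes. At an unadjusted p under 0.05 it was 0 of 27 members beside 6.82% of genes (1047). DESeq2 called 0 members beside 1.28% of genes (196), edgeR without a filter on low counts called 0 members beside 0.792% of 28286 genes (224), and limma-voom called no gene. The 27 that passed the filter had a median log2 fold change of -0.09 (Cre over Flp), with 15 lower and 12 higher, and the median of all genes tested was 0.00. The other 14 members did not pass the filter on low counts.

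The ratio of Cre over Flp differed in sign between the clones. Over the 27 tested members the median log2 ratio of Cre over Flp was -0.32 in clone 4, -0.45 in clone 7 and 0.45 in clone 21, against 0.00, 0.01 and 0.00 over all genes tested. In 11 of 27 members (40.7%) the ratio in clone 21 had the opposite sign to both other clones, beside 15.8% of all genes tested. These were Col1a1, Col5a2, Col6a1, Postn, Timp2, Timp3, Twist1, Pdgfrb, Cdh11, Vim and Acta2. All but Timp3 were lower in Cre in clones 4 and 7 and higher in clone 21. Timp3 was the reverse, with log2 ratios of 0.20, 0.12 and -0.18 in clones 4, 7 and 21. In 14 of 27 a clone showed a ratio of at least 2-fold either way (1 on the log2 scale), beside 21.7% of all genes tested. Among these 14, Col3a1, Col6a1, Col6a3, Pdgfra, Fap and Acta2 had a mean under 1 CPM, so their ratios rest on few reads. Col6a1 and Acta2 are also among the 11 named above. With a single pair of libraries per clone, the difference between clones in this ratio was not tested. The lowest of the 6 libraries was Cre clone 7 for 11 of 27 members (17.3% of all genes tested) and Flp clone 21 for 7 (18.1% of all genes).

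**Figure D2:**
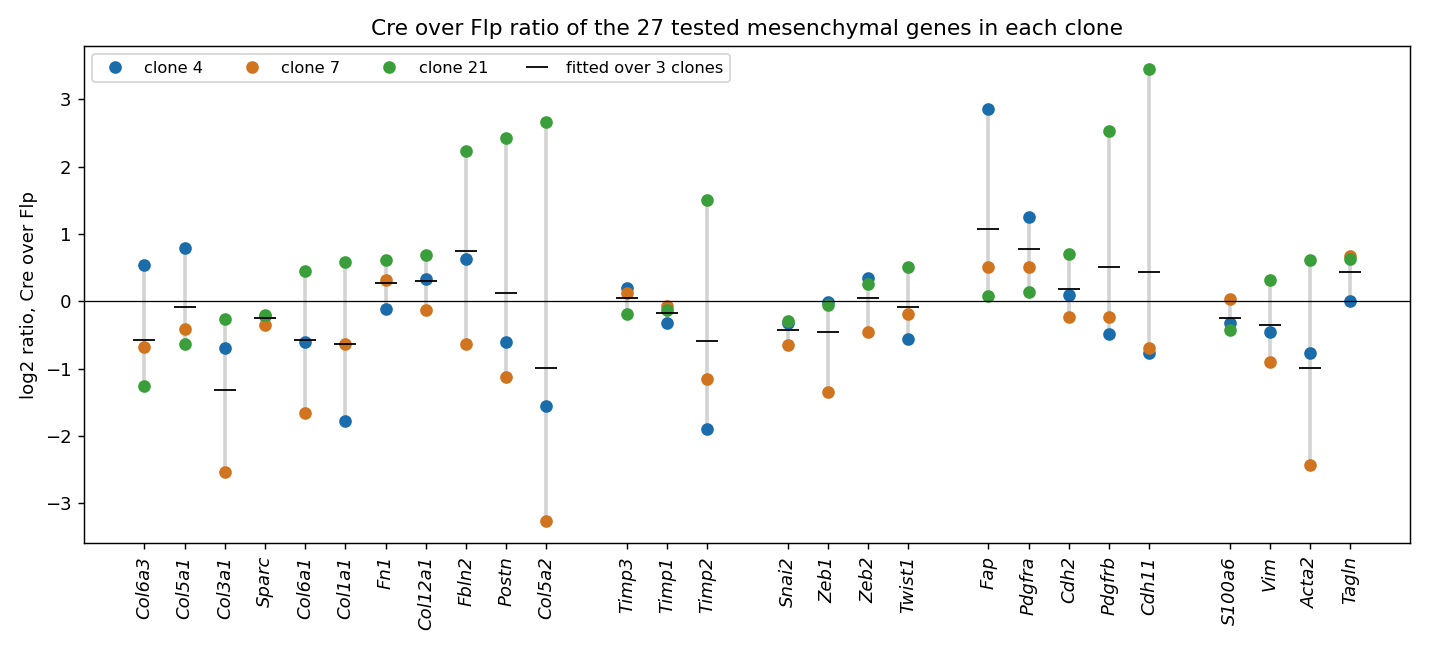
Log2 ratio of Cre over Flp in clones 4, 7 and 21 (points) and the fold change fitted over the 3 clones (black dash) for the 27 members that passed the filter, grouped by role. The clone 21 points lie above 0 for Cdh11 (3.45), Col5a2 (2.65), Pdgfrb (2.52) and Postn (2.42), where the other clones lie below it, while Sparc lies just under 0 in all 3 clones.

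Summed over members, the matrix genes came to 2464, 2487 and 2357 CPM in Cre clones 4, 7 and 21, against 2869, 2994 and 2181 CPM in Flp clones 4, 7 and 21. Fn1 and Sparc made up most of these sums. The surface genes summed to 171, 180 and 309 CPM in the Cre clones, against 209, 235 and 128 CPM in the Flp clones. In both roles the CPM sum in Cre was below that in Flp in clones 4 and 7 and above it in clone 21. For the matrix genes this order depended on the unit. Per kilobase of exons they summed to 450 in Cre and 471 in Flp clone 21, so Cre was below Flp in every clone. In clone 21, Fn1 was higher in Cre (685 against 449 CPM) and Sparc lower (1385 against 1596 CPM). The surface genes kept their order per kilobase. Beside this, the 12 epithelial markers summed to 2669, 3412 and 2231 CPM in the Cre clones, against 3219, 2198 and 2512 CPM in the Flp clones. Their median log2 ratio was -0.22, 0.89 and -0.13 in clones 4, 7 and 21, so the epithelial sum was higher in Cre in clone 7 only. None of the 12 was called, and the smallest p was that of the claudin Cldn7 among those higher (log2 fold change 2.17, SE 0.89, edgeR adjusted p 0.734) and of the keratin Krt19 among those lower (-0.18, SE 0.15, edgeR adjusted p 0.909). The part of the epithelial markers in the mesenchymal values was not tested.

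Among the matrix genes, 11 of 16 were tested, 7 lower and 4 higher in Cre, and the median log2 fold change was -0.26. Their clone medians were -0.21, -0.64 and 0.58 in clones 4, 7 and 21. Sparc was at 1448, 1305 and 1385 CPM in Cre clones 4, 7 and 21, against 1679, 1661 and 1596 CPM in Flp clones 4, 7 and 21. All 3 Cre libraries lay below all 3 Flp libraries, which 3.95% of all genes tested also showed and no other of the 27 tested members did. The means were 1380 ± 71.7 CPM in the Cre and 1645 ± 43.5 CPM in the Flp libraries (SD, n = 3 each). Its log2 fold change of -0.26 (SE 0.11) had an edgeR adjusted p of 0.756. Over the alternatives this p was never under 0.564. In the authors' deposited table the log2 fold change of Sparc was -0.23 with an adjusted p of 0.582.

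Fn1, the scaffold on which other matrix proteins assemble, was at 807, 950 and 685 CPM in Cre clones 4, 7 and 21, against 875, 764 and 449 CPM in the Flp clones. Clone 21 was lowest within each group. Between the clones, over Cre and Flp together, Fn1 gave an unadjusted p of 0.0403 (edgeR adjusted p 0.603). Between Cre and Flp its log2 fold change was 0.27 (SE 0.16, edgeR adjusted p 0.855). Col12a1, a fibril-associated collagen that links fibrils to their surroundings, was at 82.3, 174 and 146 CPM in the Cre clones, against 65.5, 189 and 90.5 CPM in the Flp clones. Both libraries of clone 4 were the lowest and both of clone 7 the highest. Its log2 fold change between Cre and Flp was 0.30 (SE 0.17, edgeR adjusted p 0.845).

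The difference between clones in Col12a1 (chromosome 9, 79598991 to 79718831, minus strand) was 1.32 on the log2 scale for clone 7 over clone 4 and 0.66 for clone 21 over clone 4. The edgeR adjusted p was 0.325, so it was not called. DESeq2 gave it an adjusted p of 7.96e-05 and edgeR without the filter 0.000374, within a range of 7.96e-05 to 0.664 over the alternatives. For members called between clones the counts were 0 in edgeR beside 0.00651% of genes (1 gene), 1 in DESeq2 beside 2.70% of genes, and 2 in edgeR without a filter beside 1.83% of genes. The second of those 2 was Col1a1, with an adjusted p of 0.0379. At an unadjusted p under 0.05 the test between clones held 4 members, Col12a1, Col1a1, Fn1 and Timp3, which is 4 of 27 beside 8.00% of all genes. In the other roles the smallest edgeR adjusted p between clones was 0.582 (Timp3), followed in turnover by 0.648 for Timp1. Among the transcription factors it was 0.690 for Snai2 and 0.854 for Zeb1, among the surface genes 0.721 for Pdgfra and 0.723 for Cdh2, and among the contractile and cytoskeletal genes 0.807 for S100a6 and 0.845 for Vim.

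Col1a1, the main chain of type I collagen, was at 5.25, 2.40 and 4.02 CPM in Cre clones 4, 7 and 21, against 18.1, 3.75 and 2.66 CPM in the Flp clones. Flp clone 4 stood far above the other 5 libraries. The log2 fold change of Cre over Flp was -0.63 (SE 0.49, edgeR adjusted p 0.900), and without clone 4 it was -0.02. Col1a2, its partner chain, had 1 read in all, in Flp clone 4. So the 2 chains of type I collagen differed, with Col1a1 at a low level in every library and Col1a2 at or near 0. Col3a1 (type III collagen) was at 0.378, 0.0685 and 0.147 CPM in the Cre clones, against 0.646, 0.671 and 0.188 CPM in the Flp clones. Cre was below Flp in each clone, at 2 to 16 reads a library in Cre and 5 to 27 in Flp. The log2 fold change of Col3a1 was -1.31 (SE 0.69, edgeR adjusted p 0.829), and without clone 7, where the counts were 2 reads in Cre and 27 in Flp, it was -0.59.

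Col5a2 (chromosome 1, 45374321 to 45503282, minus strand), a chain of the type V collagen that nucleates type I fibrils, had the widest range of ratios between the clones. It was at 66.1, 36.0 and 99.0 CPM in Cre clones 4, 7 and 21, against 194, 345 and 15.7 CPM in Flp clones 4, 7 and 21. Cre was below Flp in clones 4 and 7 and above it in clone 21. The log2 ratios of Cre over Flp were -1.55, -3.26 and 2.65, and the fitted log2 fold change of -0.99 (SE 1.24) had an edgeR adjusted p of 0.948. Its neighbour on the chromosome, Col3a1, was low throughout, and the 28 genes tested within 5 Mb had a median log2 ratio of 0.16, -0.06 and -0.07 in clones 4, 7 and 21. Col5a1, the partner chain, was at 33.6, 12.1 and 13.5 CPM in the Cre clones, against 19.4, 16.0 and 20.9 CPM in the Flp clones. There Cre was above Flp in clone 4 and below it in clones 7 and 21, a different order from that of Col5a2.

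Postn (periostin, a matricellular protein of activated fibroblasts) was at 3.74, 4.21 and 8.67 CPM in Cre clones 4, 7 and 21, against 5.69, 9.29 and 1.58 CPM in the Flp clones. Its order was that of Col5a2, lower in Cre in clones 4 and 7 and higher in clone 21. Fbln2 (fibulin-2, which binds fibronectin and elastic fibres) was at 14.7, 2.33 and 13.7 CPM in the Cre clones, against 9.52, 3.65 and 2.89 CPM in the Flp clones. It was high in Cre clones 4 and 21 and in Flp clone 4. For Postn the group means differed by less than their spread, with 5.54 ± 2.72 CPM in the Cre clones and 5.52 ± 3.86 CPM in the Flp clones. For Fbln2 they were 10.2 ± 6.87 CPM in the Cre clones and 5.35 ± 3.63 CPM in the Flp clones (SD, n = 3 each), and the groups overlapped.

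The type VI collagens, microfibrils that fibroblasts place around cells, were low. Col6a1 was at 0.103 to 1.02 CPM in Cre and 0.447 to 1.57 CPM in Flp, and both libraries of clone 4 were above the other 4. Col6a2 lay between 0 and 0.444 CPM and Col6a3 between 0.242 and 0.788 CPM over the 6 libraries. Eln (elastin) lay between 0.0375 and 0.480 CPM. The small proteoglycans of fibroblast matrix, Dcn (decorin) and Lum (lumican), had at most 3 reads and 1 read in any library.

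**Figure D3:**
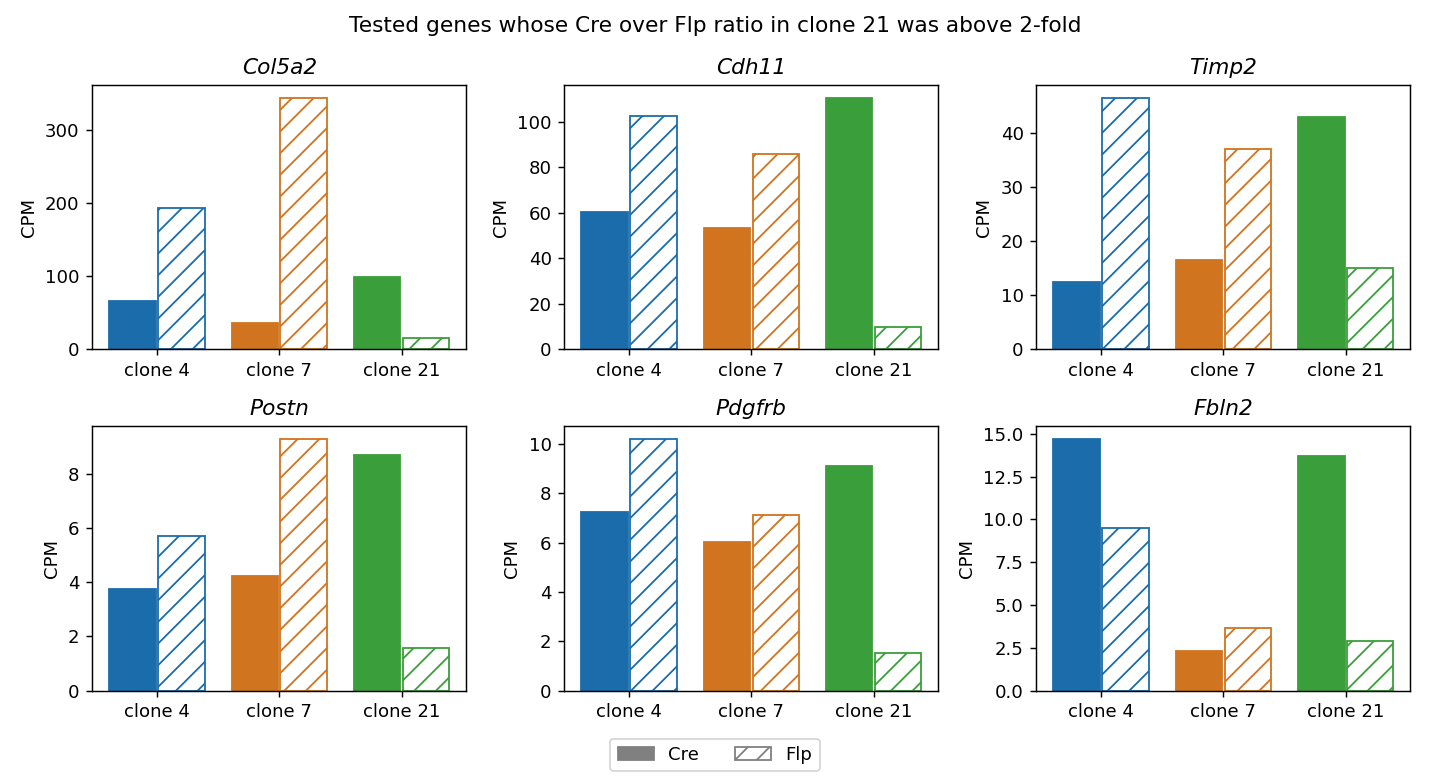
CPM in each library (bars from 0, solid for Cre and hatched for Flp, 1 library each) of the 6 tested members whose ratio of Cre over Flp in clone 21 was above 2-fold. Flp clone 21 is the lowest library for Col5a2, Cdh11, Postn and Pdgfrb, at 15.7, 10.1, 1.58 and 1.54 CPM.

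Of the turnover genes, Timp2 shared the pattern of Col5a2. Timp2 (chromosome 11, 118301069 to 118355740, minus strand), an inhibitor of metalloproteinases that also takes part in activating Mmp2, was at 12.5, 16.5 and 42.9 CPM in Cre clones 4, 7 and 21, against 46.5, 37.0 and 15.0 CPM in Flp clones 4, 7 and 21. Cre clones 4 and 7 and Flp clone 21 were low, and the 3 others were more than 2 times higher. The log2 ratios were -1.90, -1.16 and 1.51, with a fitted log2 fold change of -0.58 (SE 0.68, edgeR adjusted p 0.948). Timp1, a secreted inhibitor induced in injured tissue, was at 20.4, 16.0 and 14.8 CPM in the Cre clones, against 25.5, 16.8 and 16.2 CPM in the Flp clones. It was lower in Cre in each clone, by a log2 ratio of -0.32, -0.07 and -0.13 (fitted -0.18, SE 0.16, edgeR adjusted p 0.919).

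Timp3, the inhibitor that stays bound to the matrix, was at 339, 442 and 418 CPM in Cre clones 4, 7 and 21, against 294, 407 and 475 CPM in the Flp clones. The groups overlapped, and clone 4 held the lowest level in each group. Its unadjusted p between clones was 0.0347 (edgeR adjusted p 0.582), and between Cre and Flp its log2 fold change was 0.05 (SE 0.12, edgeR adjusted p 0.983). Mmp2, the gelatinase of fibroblasts, had 1 read in all, in Cre clone 4. So the inhibitors were present and this protease was at or near 0 in every library.

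The transcription factors were split by family member. Twist1, a mesodermal factor, was at 17.7, 18.3 and 22.4 CPM in Cre clones 4, 7 and 21, against 26.1, 20.8 and 15.7 CPM in the Flp clones. The groups overlapped, and the log2 fold change was -0.08 (SE 0.24, edgeR adjusted p 0.984). Twist2, its paralog, stayed at or under 0.565 CPM, with 14 reads in Flp clone 4 and 0 in Flp clones 7 and 21. Snai2 (Slug), a repressor of epithelial adhesion genes, was at 11.4, 6.75 and 11.7 CPM in the Cre clones, against 14.3, 10.6 and 14.4 CPM in the Flp clones. It was lower in Cre in each clone, with log2 ratios of -0.33, -0.65 and -0.29, a fitted value of -0.42 (SE 0.19) and an edgeR adjusted p of 0.769. Snai1, the other Snail factor, had 0, 1 and 9 reads in Cre clones 4, 7 and 21, against 0, 1 and 1 reads in the Flp clones.

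Zeb1, a zinc finger repressor of Cdh1, was at 21.7, 8.77 and 20.0 CPM in Cre clones 4, 7 and 21, against 21.9, 22.3 and 20.7 CPM in the Flp clones. Cre clone 7 stood alone at less than 9 CPM while the other 5 libraries lay within 20.0 to 22.3 CPM. That library also had the highest Cdh1 level, 835 CPM, followed by Flp clone 21, where Zeb1 was at 20.7 CPM. The relation of the 2 genes was not tested. The fitted log2 fold change of Zeb1 was -0.46 (SE 0.30, edgeR adjusted p 0.874), and without clone 7 it was -0.03. Zeb2, the related repressor, was at 18.4, 14.3 and 20.5 CPM in the Cre clones, against 14.5, 19.6 and 17.2 CPM in the Flp clones, with overlapping groups and a log2 fold change of 0.05 (SE 0.22, edgeR adjusted p 0.990). Prrx1, a homeobox factor of limb and other mesenchyme, reached at most 3 reads in a library. Tcf21, a factor of kidney stroma and mesoderm, had none, and Tbx18 had 14 reads in Flp clone 7 and none elsewhere.

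All 5 surface genes tested had a positive fitted fold change, with a median log2 fold change of 0.51, but none passed the test. The sign was not shared by the clones, whose medians were 0.09, -0.23 and 0.71 in clones 4, 7 and 21. Cdh11 (chromosome 8, 102632095 to 102785642, minus strand), the cadherin through which mesenchymal cells adhere to each other, was at 60.4, 53.2 and 111 CPM in Cre clones 4, 7 and 21, against 103, 85.9 and 10.1 CPM in Flp clones 4, 7 and 21. Flp clone 21 was lower than any other library, and clone 21 was the only clone in which Cre was above Flp. The log2 ratios were -0.76, -0.69 and 3.45, and the fitted log2 fold change was 0.44 (SE 0.91, edgeR adjusted p 0.975). Leaving out a clone gave 1.33 without clone 4, 1.30 without clone 7 and -0.73 without clone 21, none of them called.

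Pdgfrb, the receptor for platelet-derived growth factor carried by pericytes and fibroblasts, was at 7.26, 6.03 and 9.09 CPM in the Cre clones, against 10.2, 7.13 and 1.54 CPM in the Flp clones. Its order was that of Cdh11, with Flp clone 21 the lowest and a log2 ratio of 2.52 in clone 21 (fitted log2 fold change 0.51, SE 0.65, edgeR adjusted p 0.948). Cdh2 (N-cadherin), which tubule cells of the kidney also express, was at 102, 121 and 188 CPM in the Cre clones, against 96.0, 142 and 116 CPM in the Flp clones. Cre clone 21 was the highest, and the log2 fold change was 0.19 (SE 0.19, edgeR adjusted p 0.931). Pdgfra, the receptor that marks interstitial fibroblasts, was at 0.946, 0.308 and 0.253 CPM in the Cre clones, against 0.363, 0.199 and 0.225 CPM in the Flp clones. It was higher in Cre in each clone, at 6 to 40 reads a library, with a log2 fold change of 0.77 (SE 0.51, edgeR adjusted p 0.874). Fap, a serine protease of activated fibroblasts, stayed at 0.308 to 0.358 CPM in Cre and 0 to 0.338 CPM in Flp, and Thy1 (CD90) had 0 reads in all 6 libraries. The log2 fold change of Fap was 1.07 (SE 0.87, edgeR adjusted p 0.907).

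Of the contractile and cytoskeletal genes, Vim, S100a6 and Tagln were above 1 CPM and S100a4, Acta2 and Cnn1 were not. Vim, the intermediate filament of mesenchymal cells that cultured epithelial cells also make, was at 205, 131 and 271 CPM in Cre clones 4, 7 and 21, against 282, 243 and 218 CPM in the Flp clones. Cre was below Flp in clones 4 and 7 and above it in clone 21, with a fitted log2 fold change of -0.35 (SE 0.23, edgeR adjusted p 0.875). S100a6 was at 222, 201 and 188 CPM in the Cre clones, against 278, 197 and 253 CPM in the Flp clones. Clone 7 was level while clones 4 and 21 were lower in Cre, and the log2 fold change was -0.24 (SE 0.13, edgeR adjusted p 0.823). S100a4 (FSP1), often used as a fibroblast marker, had at most 4 reads in any library of the count files.

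Acta2, the smooth muscle actin that defines myofibroblasts, was at 0.307, 0.137 and 0.316 CPM in Cre clones 4, 7 and 21, against 0.565, 0.993 and 0.188 CPM in the Flp clones. It stayed under 1 CPM everywhere, at 4 to 15 reads a library in Cre and 5 to 40 in Flp. As for Col5a2, Cre was below Flp in clones 4 and 7 and above it in clone 21. In clone 21 this rests on 15 reads in Cre against 5 in Flp. Cnn1 (calponin), a smooth muscle protein, never exceeded 6 reads and did not pass the filter. Tagln (transgelin), an actin-binding protein of smooth muscle, was at 11.3, 15.1 and 11.4 CPM in the Cre clones, against 11.2, 9.46 and 7.39 CPM in the Flp clones. All 3 Cre libraries lay above all 3 Flp libraries, which 4.19% of all genes tested also showed and no other of the 27 tested members did. The gap was narrow in clone 4, at 11.3 CPM in Cre against 11.2 CPM in Flp. The means were 12.6 ± 2.16 CPM in the Cre and 9.36 ± 1.92 CPM in the Flp libraries (SD, n = 3 each), and the log2 fold change was 0.44 (SE 0.23, edgeR adjusted p 0.813).

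The level of Tagln depended on the source. Its exons overlap those of Gm48529 and Pcsk7, and the authors' deposited table gives it a mean normalised count of 6441, which is 16.7 times the 386 computed from the count files. The authors' deposited table also exceeds the count files 4.01 times for S100a4 (9.21 against 2.30), 2.42 times for Twist2 (12.8 against 5.28) and 1.57 times for Timp3 (21852 against 13893). Smaller excesses were those of Tbx18 (1.37 times) and Acta2 (1.21 times), both at low counts. Tagln, S100a4, Twist2, Timp3 and Tbx18 each overlap exons of another gene in the annotation, as 12 of the 41 members do, and Acta2 does not. The strand setting of the counting is not given in the sources used here. The levels of Tagln, S100a4, Twist2 and Timp3 in the count files are therefore uncertain. Fap was the member furthest below, at 0.703 times. In the authors' deposited table no member had an adjusted p under 0.05.

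**Figure D4:**
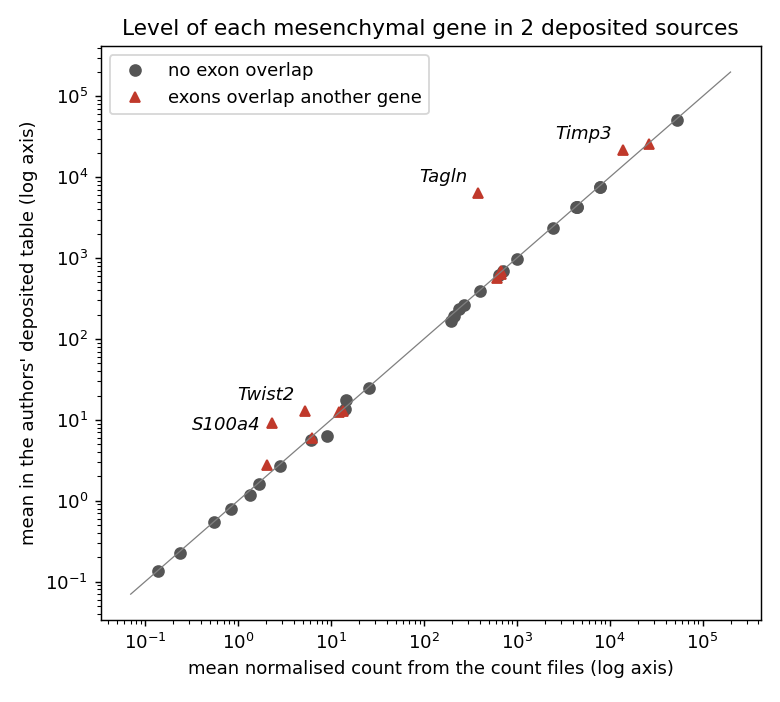
Mean normalised count of each member in the authors' deposited table against the mean computed from the 6 count files (both log axes, members at 0 left out, grey line at equality); triangles mark members whose exons overlap another gene. Most members lie on or near the line, while Tagln, S100a4, Twist2 and Timp3 lie furthest above it. Tbx18 and Acta2 lie above it by less.

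Other genes of the programme, outside the 41, showed no called change either. Of collagen processing enzymes 13 of 15 were tested, 8 lower and 5 higher in Cre, with 0 called and a median log2 fold change of -0.09. Bmp1, which cleaves procollagen, was at 221, 278 and 301 CPM in Cre clones 4, 7 and 21, against 182, 197 and 184 CPM in the Flp clones (log2 fold change 0.49, SE 0.12, edgeR adjusted p 0.607). P4hb, a subunit of the prolyl 4-hydroxylase, averaged 940 ± 79.7 CPM in the Cre and 1165 ± 114 CPM in the Flp libraries (SD, n = 3 each; log2 fold change -0.31, edgeR adjusted p 0.732). Of other fibroblast matrix genes 12 of 20 were tested, 4 lower and 8 higher, with 0 called and a median of 0.28. Fbn1 (fibrillin-1) was at 124, 75.5 and 109 CPM in the Cre clones, against 46.5, 66.3 and 55.5 CPM in the Flp clones (log2 fold change 0.86, SE 0.24, edgeR adjusted p 0.631). Efemp2 (fibulin-4) averaged 107 ± 3.55 CPM in the Cre and 128 ± 7.32 CPM in the Flp libraries (SD, n = 3 each; log2 fold change -0.26, edgeR adjusted p 0.686).

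Of other mesenchymal transcription factors 7 of 16 were tested, 4 lower and 3 higher in Cre, with 0 called. Runx2, the osteoblast factor, had the smallest p, at 0.480 ± 0.187 CPM in the Cre and 1.18 ± 0.289 CPM in the Flp libraries (SD, n = 3 each; log2 fold change -1.32, edgeR adjusted p 0.640). Among those higher it was Nr2f2 (COUP-TFII, an orphan nuclear receptor), with a log2 fold change of 0.14 (SE 0.13, edgeR adjusted p 0.926). Of other contractile genes 8 of 11 were tested, and all 8 had a negative fitted fold change, with 0 called and a median of -0.23. Mylk, the myosin light chain kinase, was at 258, 148 and 198 CPM in the Cre clones, against 276, 274 and 311 CPM in the Flp clones (log2 fold change -0.55, SE 0.17, edgeR adjusted p 0.646). Of other matrix proteases and inhibitors 5 of 10 were tested, 1 lower and 4 higher, with 0 called. Adamts1, a secreted protease of proteoglycans, averaged 302 ± 116 CPM in the Cre and 187 ± 19.9 CPM in the Flp libraries (SD, n = 3 each; log2 fold change 0.63, edgeR adjusted p 0.646). The gene that was lower, Reck, a membrane-anchored inhibitor of metalloproteinases, had a log2 fold change of -0.37 (SE 0.25, edgeR adjusted p 0.883).

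The low level in Flp clone 21 was also seen in some of these genes. Flp clone 21 was the lowest library for 6 of 13 collagen processing genes and 3 of 12 other fibroblast matrix genes. The same held for 2 of 7 other transcription factors, 4 of 5 other proteases and inhibitors and 0 of 8 other contractile genes. Over all genes tested the share was 18.1%, and for 4 of the 8 contractile genes Flp clone 21 was the highest library. Loxl1, a collagen and elastin cross-linking oxidase, was at 33.0, 50.5 and 74.2 CPM in Cre clones 4, 7 and 21, against 39.7, 49.5 and 6.04 CPM in the Flp clones. Adamts5, an aggrecan-cleaving protease, was at 55.7, 43.6 and 57.6 CPM in the Cre clones, against 55.4, 44.3 and 16.0 CPM in the Flp clones. The log2 ratios in clones 4, 7 and 21 were -0.27, 0.03 and 3.61 for Loxl1 and 0.01, -0.02 and 1.85 for Adamts5; these 2 genes were chosen after their values were seen. Genes within 5 Mb of Cdh11, Timp2, Postn and Pdgfrb had median log2 ratios no further from 0 than 0.07 in clone 21. The ratios of these members were thus not those of the typical gene nearby. Whether single genes nearby shared them was not tested.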

How the data were processed

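Total RNA of 6 cultures was sequenced. The submitters' processing notes name Trim Galore 0.4.3.0 and FastQC 0.67 for trimming and quality control. They also list the aligner STAR (2.5.2b-2), the read counter featureCounts (1.6.0.3), DESeq2 (2.11.40.1) and the builds mm10 and GRCm38. Strandedness and annotation release: not given in the sources used here. For each library the authors deposited whole-number counts of reads by Ensembl gene, not normalized. They also deposited a comparison table with a p-value with its adjustment, the log2 fold change with an error, a Wald score and the mean normalized count as a signal. It was read as Cre over Flp, since 95.6% of signs over 12825 genes matched.

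Symbols, coordinates, exon lengths and exon overlaps came from GENCODE M21 (GRCm38), which held 49412 of the 49671 identifiers. In R 4.3.3, counts were filtered with filterByExpr, scaled by TMM and tested with edgeR 4.0.16 (quasi-likelihood, clone as block, 2 residual degrees of freedom; Benjamini-Hochberg over 15355 genes, threshold 0.05). The clone terms of that fit were tested for levels between clones. Standard errors came from the F statistic, and log2 ratios per clone used a prior count of 2. The clones pair the samples by the series' design, and the libraries' deviations from their group means had correlations of 0.20 (clone 4), 0.11 (clone 7) and 0.30 (clone 21). The tests were also run on simulated data. The members, role groups and lists were chosen with earlier results of these data known. Values per library are given for members with a mean of at least 1 CPM and for those below it with the smallest p of their role, the rest by range; statistics are given for at least the 3 smallest p of each role and, for the other mesenchymal lists and the epithelial markers, for the genes with the smallest p in each direction. Alternatives were no block, DESeq2 1.42.0, limma-voom (limma 3.58.1), RLE and upper quartile scaling, no filter, a mean of at least 1 CPM, and leaving out each clone. Promoters came from RefSeq, and 16 members without an entry were left out of that description. Figures used matplotlib 3.10.9.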

Additional observations from a re-analysis of the deposited data

Results flagged for a closer look

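For Col5a2, Postn and Timp2 the Cre libraries lay on opposite sides of their Flp libraries in different clones. The log2 ratio of Cre over Flp spanned 5.91 between the highest and the lowest clone for Col5a2, 3.55 for Postn and 3.40 for Timp2. In each of the 3 genes Cre was lower in clones 4 and 7 and higher in clone 21, by a log2 ratio of 2.65 for Col5a2, 2.42 for Postn and 1.51 for Timp2. With 1 Cre and 1 Flp library per clone, the difference between clones was not tested.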

How the results depend on the processing

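Between Cre and Flp, edgeR called 0 genes, DESeq2 196 and edgeR without the filter 224, and the other alternatives, including the fit with no replicate block, called 0. Between clones, edgeR called 1 gene, DESeq2 414, limma-voom 0, edgeR without the filter 519 and with a mean of at least 1 CPM 0, and leaving out a clone gave 0 to 4. Members called between clones numbered 0, with 1 in DESeq2 (Col12a1) and 2 without the filter (Col12a1 and Col1a1). Members under an unadjusted p of 0.05 between Cre and Flp numbered 0, with 1 each in DESeq2 and limma-voom (Sparc) and 3 to 5 when a clone was left out; none of these passed adjustment. Without clone 21 these were Cdh11 (log2 fold change -0.73), Col1a1 (-1.23), Col5a2 (-2.41), Timp2 (-1.53) and Vim (-0.68). Without clone 4 they were Col5a1 (-0.52), Fn1 (0.46) and Tagln (0.65), and without clone 7 Col12a1 (0.51), Fbln2 (1.42) and S100a6 (-0.38). The share of all genes under that unadjusted p was 6.82% in the main edgeR fit and was not counted in these alternatives. Whether the members named here exceed the background of their fit was therefore not assessed. The median log2 fold change of the tested members was -0.09, -0.10 with no replicate block, -0.28 without clone 21, 0.01 without clone 7 and 0.05 without the filter (39 members). Of 27 members, 17 kept their sign under every alternative run and 10 had the other sign under at least 1. Leaving out a clone moved 14 (clone 21), 11 (clone 7) and 5 (clone 4) members by more than their standard error.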
